A study of Mus musculus with 6 samples.

Results

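*Gfap*, *Vim*, *Nes* and *Synm* encode the intermediate filament proteins of astrocytes, and their RNA was compared in hippocampal astrocytes with and without ablation of microglia. The members were the rows of the deposited tables that carry these 4 gene symbols, and all 4 were found among the 24421 genes listed. Astrocytes came from adult male mice of the C57BL/6 strain that were *Siglech* dtr/dtr, so that both groups carried the diphtheria toxin (DT) receptor in *Siglech*, a gene that marks microglia. Mice were killed 2 days after an injection of PBS or of DT at 50 μg/kg, and each group had 3 libraries, each from the pooled hippocampi of 2 mice. Cells with CD11b, a surface protein of microglia, were first removed on a magnetic column, and cells with astrocyte cell surface antigen-2 were then collected. Mice without the receptor were not analysed here, so an effect of DT itself and the loss of microglia cannot be told apart.

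Intermediate filaments are ropes of coiled-coil proteins that give a cell its resistance to stretch. GFAP is the filament protein by which astrocytes are recognised, and more of it is the classical sign of their activation. Vimentin assembles with GFAP in the same filaments and is also made by endothelial, ependymal, mesenchymal and immune cells. Nestin is found in neural stem cells, reactive astrocytes and growing vessels, and synemin links filaments to other parts of the cytoskeleton in astrocytes and muscle. Nestin and synemin form filaments only together with a partner such as vimentin.

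On mm10, *Gfap* (ENSMUSG00000020932.14) lies on chromosome 11 (102887336 to 102900912, minus strand), *Vim* (ENSMUSG00000026728.9) on chromosome 2 (13573927 to 13582826, plus strand), *Nes* (ENSMUSG00000004891.16) on chromosome 3 (87971078 to 87980451, plus strand) and *Synm* (ENSMUSG00000030554.16) on chromosome 7 (67730160 to 67759742, minus strand). The 250 bases before the RefSeq start of *Gfap* are shown because this gene changed most among the 4. They lie on the minus strand at chr11:102897201-102897450 of GRCm38.p6, outside annotated exons and inside the span of 1 longer transcript, and are written from 5′ to 3′.
*Gfap* promoter: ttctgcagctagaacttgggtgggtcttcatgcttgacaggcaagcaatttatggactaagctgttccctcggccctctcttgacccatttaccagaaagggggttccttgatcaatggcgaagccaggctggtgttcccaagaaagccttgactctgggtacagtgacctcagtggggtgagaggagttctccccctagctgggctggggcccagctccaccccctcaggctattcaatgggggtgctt
This window held 2 CpG dinucleotides, where the median over 32851 promoters of the same length was 6. The letters TTCNNNGAA of a STAT site and TGANTCA of an AP-1 site, each read on both strands, were not in it, nor in the windows of *Vim*, *Nes* and *Synm*. They occur in 7.02% and 6.75% of all promoters. The letters CCAAT occurred in 33.8% of promoters and TATAAA in 12.4%. The window of *Vim*, of which all 250 bases lie in annotated exons of longer transcripts, held CCAAT at 196 and 94 bases before the start and TATAAA at 32, that of *Synm* held CCAAT at 78, and those of *Gfap* and *Nes* held neither. These matches describe the letters only, and no match says nothing about sites outside the window.

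The libraries held 21704891 to 32933975 reads, recovered from the deposited values. The 15 astrocyte markers summed to 43070 to 44780 TPM (a level per length of transcript, scaled to the same total in each library) after PBS and to 42090 to 44650 TPM after DT, and none of them passed the test. All 12 microglia markers had negative fold changes, 7 of them past the test, with sums of 280 to 341 TPM after PBS and 153 to 173 TPM after DT. *Siglech*, which carries the receptor, was at 1.14, 2.62 and 2.36 TPM after PBS, with at most 71 reads, and had no read in any DT library. The paper reports that its expression in microglia is considerably lowered in homozygous mice, the genotype of both groups. In such bulk samples, fewer cells of a type and less RNA per cell cannot be told apart. Genes with a mean of at least 0.5 CPM (reads scaled to library size) were compared as log2(CPM + 0.1) with limma, and a gene was called at an adjusted p-value under 0.05 over all 15137 genes tested. By this rule, 0.713% of genes were called, 0.555% as higher and 0.159% as lower after DT. The median log2 fold change of all genes tested was -0.01, and 48.7% of them had a positive value. The p-values reflect the spread between pools.

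Of the 4 genes, *Gfap* alone was called. *Vim* was higher in every DT library and missed the threshold, and *Nes* and *Synm* overlapped between the groups. Both *Gfap* and *Vim* were thus without overlap, as were 8.75% of all genes tested with the DT libraries above, against 7.57% with the DT libraries below.

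**Figure D1:**
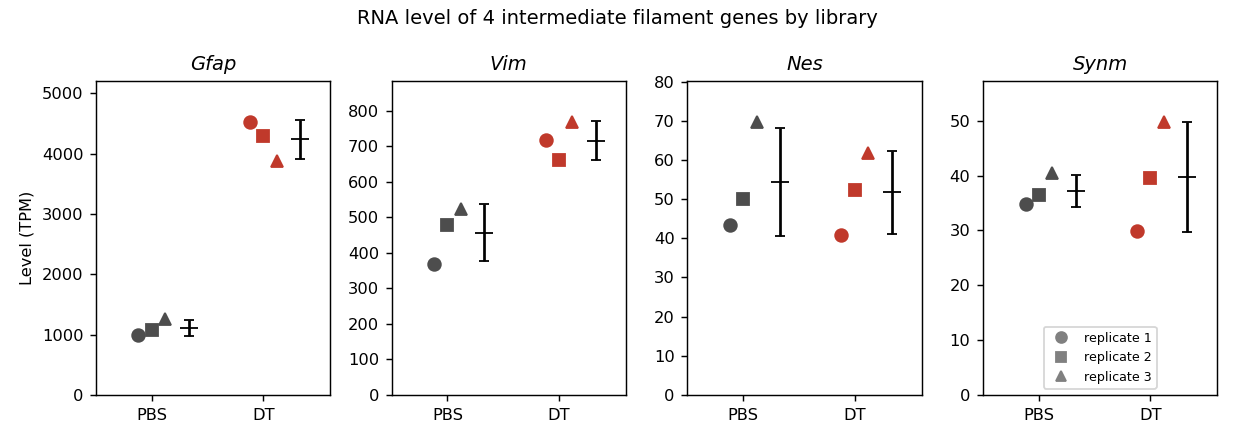
Level of each gene in TPM (vertical axis, from 0) by group (horizontal axis), with 1 symbol per library, its shape marking the replicate number, and the mean with its SD (n = 3) as a bar beside it. The DT libraries of *Gfap* lie between 3887 and 4527 TPM, above a highest PBS value of 1252, those of *Vim* lie above a highest PBS value of 523, and the groups of *Nes* and *Synm* overlap.

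In the PBS libraries, *Gfap* was at 994, 1080 and 1252 TPM, and in the DT libraries at 4527, 4300 and 3887 TPM. The lowest DT library was thus far above the highest PBS library. The means were 1109 ± 131 TPM (SD, n = 3) and 4238 ± 324 TPM (SD, n = 3). By mean TPM, the gene stood at rank 64 of all listed genes after PBS and at rank 15 after DT. Its log2 fold change in CPM was 1.93 (limma, standard error [SE] 0.10, adjusted p = 8.2e-05), a fold of 3.799 with a 95% confidence interval from 3.25 to 4.44. *Gfap* had the fourth smallest p-value of all genes tested. In TPM, it gained 3129 between the group means, more than any other listed gene, and the next was *Ttr*, a choroid plexus gene, with 1464. The *Ttr* libraries overlapped, at 358.5, 1968 and 80.2 TPM after PBS and at 3351, 2257 and 1190 TPM after DT. *Ttr* was not called. For *Gfap*, the counting error of the 20217 to 118377 reads per library was at most 0.703%. Its libraries within a group varied by 11.2% (coefficient of variation of CPM) after PBS and 9.02% after DT.

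*Vim*, the partner of *Gfap* in the filament, was at 368, 480 and 523 TPM after PBS and at 719, 661 and 769 TPM after DT. The groups were separate, with PBS replicate 1 lowest and DT replicate 3 highest. The means were 457 ± 80.1 TPM (SD, n = 3) and 716 ± 53.9 TPM (SD, n = 3), and the gain of 259 TPM was at rank 12 of all listed genes. The log2 fold change was 0.65 (limma, SE 0.12, unadjusted p = 0.000497, adjusted p = 0.0616), a fold of 1.57 with an interval from 1.297 to 1.89. *Vim* was therefore not called over all genes. It was called at the same fold change with the replicate number as a block (adjusted p = 0.0483 from limma), and on the recovered reads with DESeq2 (adjusted p = 2.63e-05) and with edgeR's exact test (adjusted p = 0.00086). Over all 18 alternatives, its adjusted p-values (limma, edgeR or DESeq2) lay between 2.63e-05 and 0.254. Without PBS replicate 1, the library with the lowest level, its log2 fold change was 0.51 (adjusted p = 0.0768 from limma).

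*Nes*, the stem cell filament gene, was at 43.3, 50.1 and 69.7 TPM after PBS and at 40.9, 52.4 and 61.9 TPM after DT. The highest library was a PBS library and the lowest a DT library, with the rest interleaved. The log2 fold change was -0.08 (limma, SE 0.18, adjusted p = 0.927), and the interval of the fold ran from 0.711 to 1.27. The sign turned without PBS replicate 3 (0.12) and without DT replicate 1 (0.07). With 1988 to 3418 reads per library, the counting error was at most 2.24%, and the libraries varied by 24.8% after PBS and 19.1% after DT.

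*Synm* was at 34.8, 36.5 and 40.5 TPM after PBS and at 29.9, 39.6 and 49.8 TPM after DT. The DT libraries held both the lowest and the highest value. The log2 fold change was 0.03 (limma, SE 0.15, adjusted p = 0.964), and the interval of the fold ran from 0.811 to 1.29. Without DT replicate 3, the highest library, the log2 fold change was -0.15 (adjusted p = 0.788 from limma). The intervals of *Nes* and *Synm* leave room for changes of about the size of their bounds and do not reach the fold of *Gfap*. *Ttc23*, on the opposite strand, overlaps *Synm* and had 511 to 797 reads per library against 1729 to 2903 for *Synm*, and the authors mapped reads by strand.

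The order of the levels per length was the same in every library: *Gfap* was highest, followed by *Vim*, *Nes* and *Synm*. *Nes* exceeded *Synm* by 1.24 to 1.72 times within a library, although the group values of both genes after DT overlapped. In the PBS group, each of the 4 genes was lowest in replicate 1 and highest in replicate 3. In the DT group, *Nes* and *Synm* were again lowest in replicate 1 and highest in replicate 3, *Vim* was highest in replicate 3, and *Gfap* was lowest there.

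The proportions of the 4 RNAs also differed between the groups. Together they made up 1441, 1647 and 1886 TPM after PBS and 5316, 5053 and 4768 TPM after DT. *Gfap* took 69.0%, 65.6% and 66.4% of this sum after PBS and 85.2%, 85.1% and 81.5% after DT, a mean of 67.0% ± 1.80 (SD, n = 3) against 83.9% ± 2.07 (SD, n = 3). The share of *Vim* was 27.5% ± 1.82 after PBS and 14.2% ± 1.65 after DT (SD, n = 3), although its own level was higher. *Nes* went from 3.25% ± 0.387 to 1.035% ± 0.264 and *Synm* from 2.26% ± 0.138 to 0.797% ± 0.241 (SD, n = 3), without overlap, while their levels overlapped. None of these shares is independent of the change of *Gfap*.

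**Figure D2:**
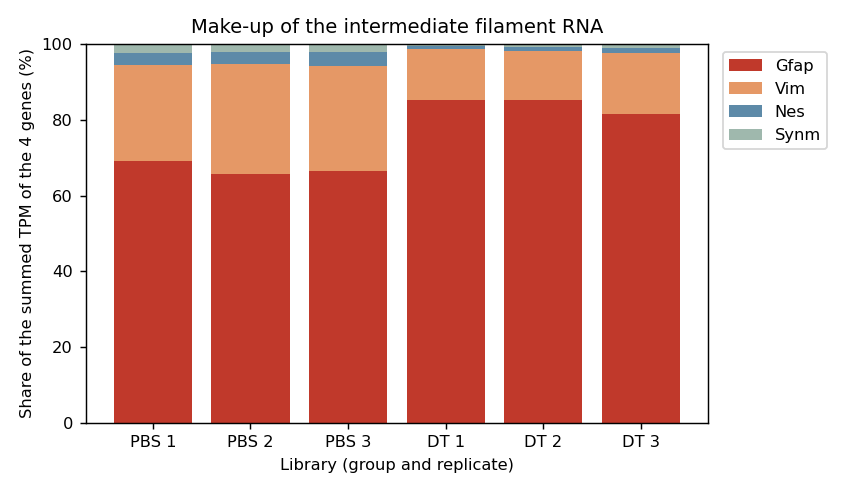
Share of each gene in the summed TPM of the 4 genes (vertical axis, percent) in each library (horizontal axis, group and replicate). The *Gfap* part fills 65.6% to 69.0% of the bar in the PBS libraries and 81.5% to 85.2% in the DT libraries.

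Whether *Gfap* and *Vim* changed by different amounts was tested on their ratio. *Gfap* was 2.70, 2.249 and 2.39 times *Vim* in TPM after PBS and 6.30, 6.51 and 5.06 times *Vim* after DT. All DT ratios lay above all PBS ratios. The log2 ratio differed by 1.28 between the groups (exact permutation test, two-sided p = 0.1, the smallest that 3 against 3 libraries allow). When each library was left out in turn, this difference lay between 1.21 and 1.39.

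The other intermediate filament genes were examined as a family. A further 64 genes were listed, of which 52 were keratins, and 20 passed the filter on low values. None of these 20 was called with limma, where 0.713% of all genes were, and 2 of them, the keratin gene *Krt80* and the lens filament gene *Bfsp1*, had an unadjusted p-value under 0.05, as 10.4% of all genes did. Their median log2 fold change was 0.17, with 17 positive and 3 negative values, where 48.7% of all genes tested were positive. Of the keratins, 43 were under the filter and 37 had no read in any library.

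Among the relatives of vimentin, the muscle and pericyte gene *Des* was at 9.27 ± 3.73 TPM after PBS and 8.89 ± 1.35 TPM after DT (SD, n = 3). *Prph*, of peripheral neurons, had no read in the PBS libraries and at most 9 in a DT library, under the filter. The neurofilament gene *Nefl*, known from axons, was at 79.9 ± 14.8 TPM after PBS and 77.5 ± 21.0 TPM after DT (SD, n = 3), which placed it between *Vim* and *Nes*. The other neurofilament genes *Nefm*, *Nefh* and *Ina* had means between 8.17 and 14.7 TPM in both groups, and syncoilin (*Sync*) was at 2.84 TPM after PBS and 3.21 TPM after DT. The 10 neuron markers summed to 319 to 383 TPM after PBS and to 283 to 468 TPM after DT, and *Nefl* and this sum were both lowest in DT replicate 1 and highest in DT replicate 3 (95.7 TPM). The part of neuronal RNA in *Nefl* was not tested.

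The lamins, which line the nucleus, were the other filament genes with a broad level. *Lmna* was at 37.4 ± 4.06 TPM after PBS and 46.2 ± 4.60 TPM after DT (SD, n = 3), a log2 fold change of 0.20 (limma, SE 0.09, adjusted p = 0.518), close to the level of *Synm*. *Lmnb1* (0.12) and *Lmnb2* (0.11) had smaller log2 fold changes. The lens gene *Bfsp2* was at 1.67 TPM after PBS and 1.12 TPM after DT, with overlapping groups. Of the keratins, *Krt15*, *Krt18* and *Krt8* had the highest levels, at 19.7, 13.5 and 12 TPM after PBS. After DT, *Krt18* was at 20.7 ± 8.08 TPM (SD, n = 3), with 30.01 TPM in DT replicate 3 and 15.5 and 16.7 TPM in the others. *Krt10*, *Krt222* and *Krt19* had means between 1.70 and 5.73 TPM in both groups. *Lmna*, *Krt18*, *Krt80* and *Bfsp1* were the 4 genes of these 20 whose CPM values did not overlap, all higher after DT, where 8.75% of all genes did so. They were picked out after their values had been seen, and *Krt80* had 0 to 29 and *Bfsp1* 15 to 40 reads per library.

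**Figure D3:**
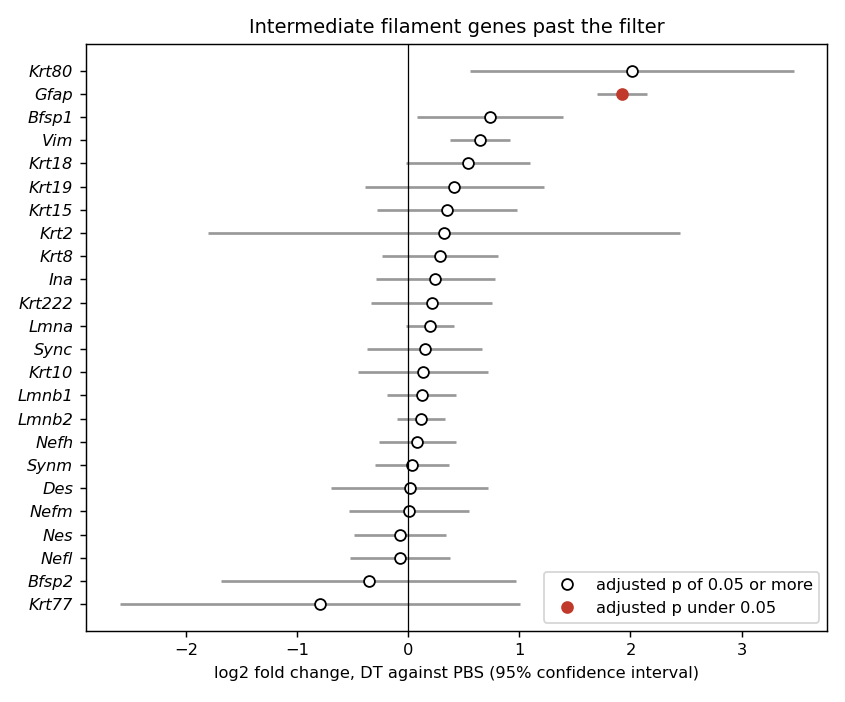
Log2 fold change of the 24 intermediate filament genes past the filter (horizontal axis, DT against PBS, with 95% confidence intervals from limma as lines), sorted by size (vertical axis). *Gfap* is the single filled point (adjusted p under 0.05), at 1.93, and the interval of *Vim* lies above 0 but its adjusted p-value was 0.0616.

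RNA of other cells that make these proteins followed some of the values in part. *Vim* is also an ependymal gene, and the 12 ependymal markers listed summed to 733, 917 and 885 TPM after PBS and to 980, 1017 and 1645 TPM after DT. All 12 had positive fold changes, none was called, and 9 had groups without overlap, where 8.75% of all genes were higher in this way. *Foxj1*, the regulator of motile cilia, had a log2 fold change of 0.55. The ependymal sum and *Vim* were both higher in every DT library than in any PBS library, and both were highest in DT replicate 3. Within the PBS group, however, the sum was highest in replicate 2 and *Vim* in replicate 3. Within the DT group, the sum was lowest in replicate 1 and *Vim* in replicate 2. Without DT replicate 3, the log2 fold change of *Vim* was 0.60 (adjusted p = 0.186 from limma). Border-associated macrophage markers summed to 17.1 to 28.5 TPM after PBS and to 61.0 to 81.6 TPM after DT, with 3 of 7 tested genes called as higher, where 0.555% of all genes were. RNA of these markers was thus found in both groups after the depletion of CD11b-bearing cells. Choroid plexus markers ranged from 103 to 2035 TPM after PBS and from 1258 to 3443 TPM after DT, with all 10 fold changes positive and none called. In CPM, 3 of these 10 were higher after DT without overlap. The part of any of these in *Vim* was not tested.

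*Nes* is also made by endothelial cells. The 12 endothelial markers summed to 910, 1044 and 1493 TPM after PBS and to 779, 806 and 950 TPM after DT. All 12 had negative fold changes, with a median of -0.40, and none was called, where 0.159% of all genes were called as lower. In CPM, 4 of the 12 were lower after DT without overlap, where 7.57% of all genes were. PBS replicate 3 was highest and DT replicate 1 lowest for both the endothelial sum and *Nes*. Pericytes and smooth muscle cells also make synemin. Their 10 markers summed to 1320, 953 and 1450 TPM after PBS and to 1115, 1239 and 1542 TPM after DT. This sum and *Synm* were both highest in DT replicate 3, but the sum was lowest in PBS replicate 2 and *Synm* in DT replicate 1. The 14 stem and progenitor markers summed to 800.3 to 936 TPM after PBS and to 835 to 854 TPM after DT, with 7 positive and 7 negative fold changes and none called. In CPM, 3 of the 14 (*Lpar1*, *Mki67* and *Top2a*) were higher after DT without overlap, where 8.75% of all genes were, and 0 were lower in this way. The part of these cells in *Nes* and *Synm* was not tested. Markers of meningeal fibroblasts, oligodendrocytes and their precursors, 10 each, had no called gene, where 0.713% of all genes were called. The fibroblast markers summed to 198 to 259 TPM after PBS and to 189 to 250 TPM after DT. Those of oligodendrocytes summed to 471 to 584 TPM and to 416 to 512.5 TPM. The precursor sums, 252 to 273 TPM after PBS and 218 to 239 TPM after DT, did not overlap. In CPM, 1, 1 and 2 markers of these lists were lower after DT without overlap. Every marker named in these lists had a read in at least 1 library, apart from *Cfap54*, an ependymal gene that was not analysed here.

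**Figure D4:**
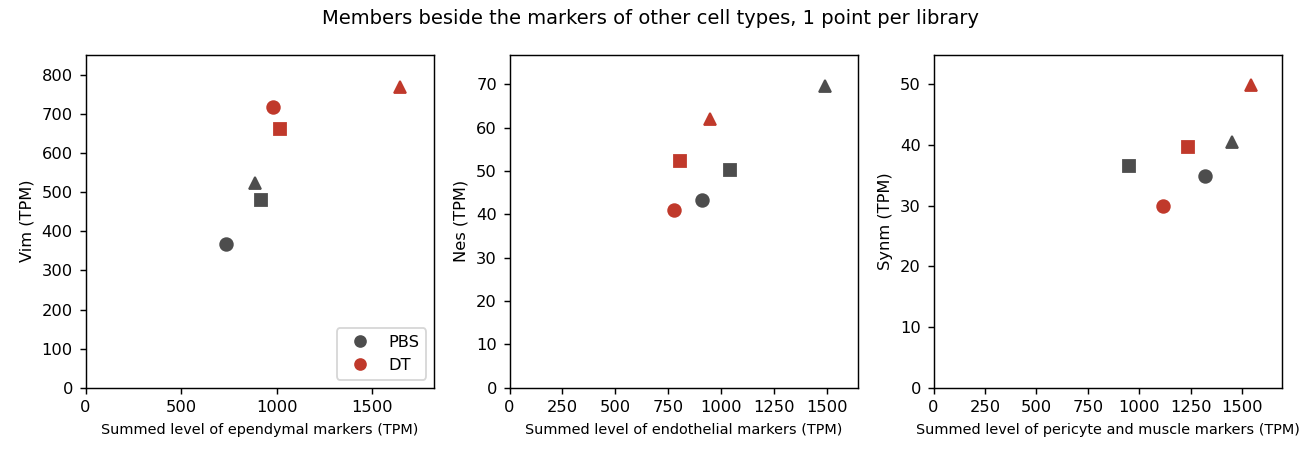
Level of *Vim*, *Nes* and *Synm* (vertical axes, TPM) against the summed level of ependymal, endothelial and pericyte and smooth muscle markers (horizontal axes, TPM), with 1 point per library, coloured by group and shaped by replicate number. DT replicate 3 has the highest ependymal sum (1645) and the highest *Vim*, and PBS replicate 3 has the highest endothelial sum (1493) and the highest *Nes*. Within the PBS group, the ependymal sum is highest in replicate 2 and *Vim* in replicate 3.

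The proteins that bind, modify and control intermediate filaments were compared as 3 lists. Of 19 cytolinkers, anchors and chaperones, none was called, where 0.713% of all genes were. Their fold changes were positive for 9 and negative for 10, with a median of -0.01. In CPM, 5 of the 19 were higher after DT without overlap, where 8.75% of all genes were, and 0 were lower in this way. The most abundant per length were the giant linkers *Macf1* and *Dst* and the dystrophin partner *Dtna*. *Dst*, dystonin, was at 247, 200.3 and 252 TPM after PBS and at 340, 323 and 324 TPM after DT. The groups were separate, and the log2 fold change was 0.49 (limma, SE 0.10, adjusted p = 0.106). *Dst* was called in 4 of 18 alternatives, among them the replicate block (adjusted p = 0.0372 from limma). *Macf1* had a log2 fold change of -0.05 and *Dtna* of -0.17, with overlapping groups. *Dag1*, dystroglycan, was picked out after its values had been seen, since it stood at 16.4 TPM in PBS replicate 1 and 13.5 TPM in DT replicate 2 and between 239 and 260 TPM in the other libraries. Of 19 enzymes that phosphorylate, citrullinate or cleave filament proteins, none was called, 16 had positive fold changes and the median was 0.03. In CPM, 3 of these 19 were higher after DT without overlap and 0 were lower. The most abundant were the phosphatase subunit *Ppp2ca* (-0.05), the protease *Capn2* (0.02) and the kinase *Rock1* (0.00), all given as log2 fold changes.

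Of 29 receptors and transcription factors known to act on these genes, 2 were called as higher and none as lower with limma, where 0.555% and 0.159% of all genes were. Their median log2 fold change was 0.04. *Osmr*, the oncostatin M receptor, was at 30.1, 36.4 and 38.8 TPM after PBS and at 115, 111 and 98.7 TPM after DT. Its groups were far apart, with a log2 fold change of 1.61 (limma, SE 0.10, adjusted p = 0.000249). *Stat3*, the transcription factor below cytokine receptors of this family and an activator of *Gfap*, was at 92.8, 99.0 and 77.5 TPM after PBS and at 157, 203 and 176 TPM after DT. Its log2 fold change was 0.98 (limma, SE 0.11, adjusted p = 0.00538), and it lost its call without the variance trend (adjusted p = 0.0776 from limma). The most abundant members of the list were *Sox2*, *Sox9* and *Jun*. Their log2 fold changes were -0.03, 0.04 and -0.09, with overlapping groups.

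The genes whose library profile was most like that of each member were found among 7715 genes with a mean of at least 20 CPM, by the root-mean-square difference of log2 CPM over the 6 libraries after centring each gene on its own mean. For *Gfap*, these were the complement genes *C4a* (0.11) and *C4b* (0.15), the hyaluronan receptor *Cd44* (0.16), *Osmr* (0.16) and the protease inhibitor *A2m* (0.25), where the median gene stood at 0.98. *C4a* and *C4b* are near-identical copies that could share reads. For *Vim*, the nearest were the mannosidase *Man1a* (0.06), the adhesion molecule *Chl1* (0.07), *Rasgrp1* (0.08), *Akna* (0.09) and *Enox1* (0.12), where the median gene stood at 0.38. For *Nes*, they were *Clstn2* (0.06), *Akap2* (0.08), *Uaca* (0.09), the tropomyosin *Tpm4* (0.09) and the transglutaminase *Tgm2* (0.09). For *Synm*, they were *Cep131* (0.06), *Sema6b* (0.07), *Enc1* (0.07), the chemokine *Cx3cl1* (0.07) and *Ifih1* (0.07). The measure counts the change after DT together with the spread within the groups, and the libraries of all genes are the same 6, so it is a description only.

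**Figure D5:**
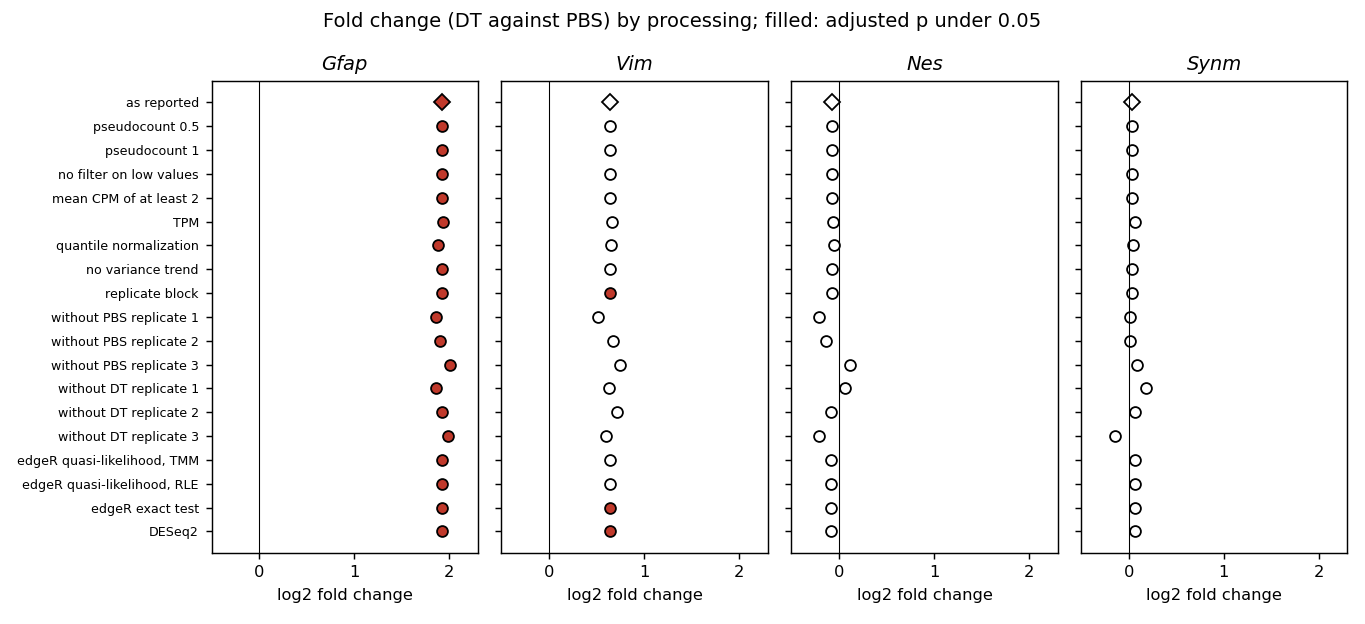
Log2 fold change of each member (horizontal axes, DT against PBS) as reported (diamond) and under 18 alternatives (circles, vertical axis), filled where the adjusted p-value was under 0.05. *Gfap* is filled throughout, between 1.86 and 2.01, *Vim* is filled in 3 alternatives, and *Nes* and *Synm* stay within 0.3 of 0 and are never filled.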

How the data were processed

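Astrocyte RNA was sequenced in 3 PBS and 3 DT libraries, grouped by the sample titles. The authors trimmed reads with Trim Galore 0.5.0, mapped them to mm10 with HISAT2 2.1.0, removed ribosomal reads with bedtools 2.25.0 and quantified genes with StringTie 1.3.5 and edgeR 3.24.3. The deposited signal is CPM on library sizes scaled by the authors, so columns sum to 980428 to 1026170. The deposited TPM are per length. The 3 columns with the authors' own comparison were not used. Whole reads were recovered for 100% of CPM values (tolerance 0.05 reads). The tables list 27 gene names turned into dates.

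The design had assumed plain CPM, and the test was kept. The test was limma 3.58.1 (R 4.3.3) on log2(CPM + 0.1), two-sided, its variance allowed to follow the mean, for genes whose mean CPM reached 0.5, with Benjamini-Hochberg adjustment. Fold changes of low genes are understated. On simulated reads, 50 genes were changed at each fold. Among 15039 genes, 50% of 1.5-fold, 92% of 2-fold and 98% of 4-fold changes were called, and 3.95% of calls were false. The changed genes were drawn only from those with many expected reads, so these rates do not cover genes with few reads.

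The members, gene lists and tests were chosen with earlier results of these data known, and the lists came from general knowledge. Named are the 4 genes, other filament genes with a mean of at least 1 TPM, called genes and the 3 most abundant of each further list, and the 5 most alike genes. Alternatives were pseudocounts, filters, TPM, quantile normalization, no trend, the replicate block, each library left out, edgeR 4.0.16 and DESeq2 1.42.0 on recovered reads. Coordinates are from GENCODE M21, and promoters from RefSeq on GRCm38.p6, matched by symbol for 4 of 4 members.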

Additional observations from a re-analysis of the deposited data

How the results depend on the processing

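*Gfap* kept its direction and its call in all 18 alternatives. *Vim* kept its direction and was called with the replicate block (0.65), edgeR's exact test (0.64) and DESeq2 (0.64). With each library left out in turn, *Gfap* had log2 fold changes of 1.86 to 2.01, *Vim* of 0.51 to 0.75, *Nes* of -0.21 to 0.12 and *Synm* of -0.15 to 0.18. *Nes* turned positive without PBS replicate 3 and without DT replicate 1, and *Synm* negative without DT replicate 3. The share of *Gfap* was higher after DT by 16.2 to 18.1 percentage points in these fits.

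Genes called higher and lower numbered 84 and 24, against 35 and 11 without the variance trend, 191 and 72 with edgeR's exact test, 227 and 98 with DESeq2, and 39 to 72 and 9 to 20 with 1 library left out. Without DT replicates 1 and 2, 39 and 40 genes were higher, and without PBS replicates 1, 2 and 3 and DT replicate 2, 11, 9, 10 and 10 were lower. Intermediate filament genes called higher numbered 1, against 2 without the variance trend (with *Bfsp1*), with the replicate block and with DESeq2 (with *Vim*), and 3 with edgeR's exact test (with *Vim* and *Krt80*).

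Same-numbered libraries had correlations of deviations of 0.115, 0.0105 and 0.118, and differently numbered ones of -0.124 to 0.0115. The paper states that the pools came from independent experiments. The sample titles do not say whether a shared number marks a shared experiment, and these values did not settle it. The replicate block changed the calls of *Vim* and *Dst* and no other call among the 4 genes and the 28 other genes run under it.

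Of 501 results for these 28 genes, 465 kept direction and call, 1 lost it and 5 gained it. The other 30 changed sign. With quantile normalization, *Des* was at -0.0224 and *Nefm* at -0.0231. *Des* was at -0.0674 and -0.0693 with edgeR's quasi-likelihood test (TMM and RLE), -0.073 with its exact test and -0.0741 with DESeq2. With 1 library left out, *Des* ranged from -0.392 to 0.246, *Nefl* from -0.245 to 0.14, *Nefm* from -0.156 to 0.270, *Nefh* from -0.0167 to 0.21, *Bfsp2* from -0.961 to 0.0157, *Krt10* from -0.03 to 0.326, *Krt15* from -0.00183 to 0.611, *Krt222* from -0.0205 to 0.415, *Macf1* from -0.111 to 0.0148, *Capn2* from -0.0493 to 0.109, *Rock1* from -0.042 to 0.0344, *Sox2* from -0.0872 to 0.0202, *Sox9* from -0.0982 to 0.15 and *Jun* from -0.227 to 0.062. For none of these changes was the cause tested.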
